A study of Homo sapiens with 9 samples.

Results

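The Krüppel-like factors KLF2, KLF4, KLF5, KLF6, KLF9, KLF10 and KLF11 were examined in A375P cells, a human melanoma line that is established in culture and carries a mutant BRAF kinase. Members were taken by gene symbol: a row of the array had to carry exactly 1 symbol of the list, and the row with the highest mean was used. Of the 7 members, 6 had such a row, each of them a single row, among 17047 genes with a row. The only row that carries KLF11 also carries a second gene symbol, so KLF11 has no value here. All 6 members passed the filter that left out the dimmest 25% of genes and were tested with 12785 genes in all.

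Cells were treated with 1 µM PD184352, an inhibitor of the MEK kinases, with 0.4 µM PLX4720, a RAF kinase inhibitor, or with the solvent DMSO, for 2, 6 or 24 h. Total RNA was measured on an array with 1 row per transcript cluster. The deposited table has 9 columns, 1 per treatment at each time, called arrays below. The design text mentions triplicates, and the labels do not say whether a column averages them. All groups share the line, the serum-containing medium and, through the line, the BRAF mutation.

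Krüppel-like factors are transcription factors whose C-terminal C2H2 zinc fingers bind GC-rich and CACCC-type elements, often in competition with the related SP factors. Some mainly activate transcription (KLF2, KLF4, KLF5, KLF6), and others recruit the SIN3A corepressor (KLF9, KLF10, KLF11). Several behave as rapid response genes: KLF4, KLF6 and KLF10 to growth factors or serum, KLF10 and KLF11 to TGF-beta, KLF9 to glucocorticoids, and KLF2 and KLF4 to the MEK5 and ERK5 cascade through MEF2 factors in endothelium. MEK and RAF, the kinases inhibited here, lie above ERK in the pathway that carries the mutant BRAF signal.

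From the RefSeq promoter table (GRCh38.p14), 8 windows for 6 of the 7 members were used. None was used for KLF10, so these numbers do not count all that the table holds. Windows of 250 bases upstream of an annotated start are printed for the 3 members whose transcript level changed by the test (KLF4, KLF5 and KLF9) and for KLF2, whose level stayed close to that of DMSO cells. They show the regulatory sequence nearest each start. Each line runs 5′ to 3′ on the gene's strand, and capitals mark the motifs found on either strand: CACCC box (CACCC), GC box (GGGCGG), ETS core (CCGGAA), AP-1 site (TGANTCA), CRE core (TGACG), and by name the glucocorticoid response element, the CArG box and the MEF2 site. Neighbouring motifs can overlap.
KLF4, chr9:107489770-107490019, minus strand: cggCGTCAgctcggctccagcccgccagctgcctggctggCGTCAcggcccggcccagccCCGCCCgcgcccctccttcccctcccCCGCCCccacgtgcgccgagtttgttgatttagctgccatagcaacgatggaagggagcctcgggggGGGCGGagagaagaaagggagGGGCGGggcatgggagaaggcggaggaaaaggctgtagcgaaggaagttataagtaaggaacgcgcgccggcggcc
KLF5 first start, chr13:73054726-73054975, plus strand: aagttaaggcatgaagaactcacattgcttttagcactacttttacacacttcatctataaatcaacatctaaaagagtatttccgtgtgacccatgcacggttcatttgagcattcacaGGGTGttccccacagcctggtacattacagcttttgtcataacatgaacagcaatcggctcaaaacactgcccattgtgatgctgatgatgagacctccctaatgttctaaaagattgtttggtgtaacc
KLF5 second start, chr13:73058755-73059004, plus strand: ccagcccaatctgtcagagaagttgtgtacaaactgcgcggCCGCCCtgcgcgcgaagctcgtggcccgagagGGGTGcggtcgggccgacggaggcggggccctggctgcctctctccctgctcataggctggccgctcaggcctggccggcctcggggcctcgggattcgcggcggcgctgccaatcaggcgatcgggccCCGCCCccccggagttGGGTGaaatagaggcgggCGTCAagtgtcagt
KLF9, chr9:70414658-70414907, minus strand: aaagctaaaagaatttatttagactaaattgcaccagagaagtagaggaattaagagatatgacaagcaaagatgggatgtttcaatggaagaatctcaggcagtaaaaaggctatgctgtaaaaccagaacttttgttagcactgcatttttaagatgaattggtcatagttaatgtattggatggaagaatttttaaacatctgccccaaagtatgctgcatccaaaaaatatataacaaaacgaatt
KLF2, chr19:16324576-16324825, plus strand: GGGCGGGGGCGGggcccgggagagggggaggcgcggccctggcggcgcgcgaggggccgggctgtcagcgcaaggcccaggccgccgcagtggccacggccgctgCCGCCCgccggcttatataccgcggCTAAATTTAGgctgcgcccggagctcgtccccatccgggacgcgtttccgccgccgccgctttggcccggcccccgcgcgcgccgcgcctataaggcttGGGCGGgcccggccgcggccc

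The KLF4 window held 4 GC boxes and 2 CRE cores and was 69.2% G and C. The KLF9 window held none of the motifs searched and was 32.4% G and C. The second KLF5 window held 2 CACCC boxes, 2 GC boxes and 1 CRE core, and the first held 1 CACCC box. KLF2 had 4 GC boxes and, 120 to 111 bases before the start, 1 MEF2 site, which reads the same on both strands. Of all 35116 windows of this length, 54.7% held a CACCC box, 42.6% a GC box, 21.2% a CRE core and 2.8% a MEF2 site. An ETS core was in 14.5%, an AP-1 site in 6.57%, a CArG box in 1.16% and a glucocorticoid response element in 0.327%, and none of these was in any printed window. The array does not tell from which KLF5 start a transcript came.

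Values below are deposited intensities or log2(intensity + 1), and a change is a difference on that log2 scale. Genes count as called where limma's p, after Benjamini-Hochberg adjustment over all 12785 genes, was below 0.05. With 1 array per treatment and time, the mean of both inhibitor arrays was compared with the DMSO array of the same time, and the spread (3 residual degrees of freedom) is that between the compounds. These p-values therefore do not measure the spread between cultures. Both compounds share each DMSO array. Median intensities of the arrays lay between 98.96 and 102.4, and their 99th percentiles between 1550 and 1654 on inhibitor arrays and between 1681 and 1754 on DMSO arrays. Genes that ERK signalling induces were lower with the inhibitors: SPRY4, a feedback inhibitor, was at −1.94, −4.13 and −4.06 (SE 0.25 each) at 2, 6 and 24 h, and was called at each time. EGR1 (−0.83, −1.22 and −1.33, SE 0.11 each) and FOSL1 (−0.73, −1.62 and −1.15, SE 0.10 each), which encode an early growth response factor and an AP-1 subunit, were called at each time too. The phosphatase gene DUSP6 was at −2.88 (SE 0.56) at 2 h, which did not pass (adjusted p = 0.158, limma), and was called at 6 h (−3.64) and 24 h (−2.84). Of the melanocyte markers, PMEL (10.21 to 11.18), SOX10 (9.72 to 10.79) and MITF (9.32 to 10.44) lay above the filter's limit of 6.21 (log2) on all 9 arrays, and TYRP1 had a mean below it. Some markers of other cell types also lay above that limit on all 9 arrays. These were KRT14 (keratinocyte, 7.53 to 7.85), COL1A1 (7.38 to 7.56) and COL1A2 (6.25 to 6.43) of fibroblasts, and CDH5 (endothelial, 6.35 to 6.63). LUM (5.96 to 6.42) lay on both sides of that limit. DCN, CD3E and PECAM1 lay below it on all 9 arrays, and the leukocyte marker PTPRC was at 3.64 to 3.74. The limit thus does not separate melanocyte markers from others.

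**Figure D1:**
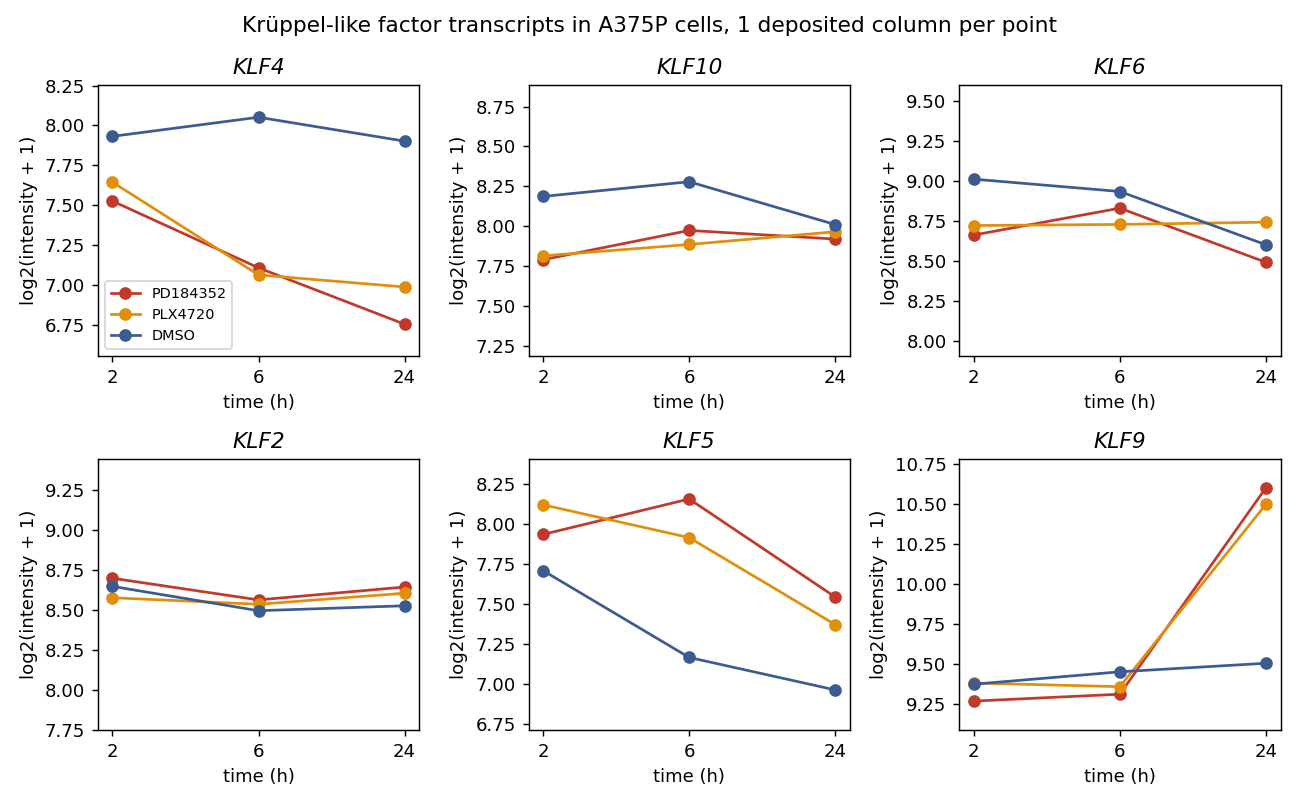
Level of the 6 Krüppel-like factors, as log2(intensity + 1), against time in hours, with 1 point per array and a line per treatment (PD184352, PLX4720 and DMSO). Vertical axes span the same range in log2 units. All 6 KLF4 inhibitor points lie below the 3 DMSO points, KLF5 lies above DMSO at each time, and KLF9 leaves the DMSO line at 24 h.

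The activator KLF4, one of the factors used to reprogram cells to pluripotency, fell with both inhibitors. Its intensity was 183, 137 and 107 at 2, 6 and 24 h with PD184352, and 199, 133 and 126 with PLX4720, against 243, 264 and 238 with DMSO. All 6 inhibitor arrays read lower than all 3 DMSO arrays. The DMSO arrays themselves lay within 0.15 (log2) of each other, since KLF4 had log2 values of 7.93, 8.05 and 7.90 there. The change was −0.35 (SE 0.11, adjusted p = 0.490, limma) at 2 h, which did not pass, and KLF4 was called at 6 h, at −0.96 (SE 0.11, adjusted p = 0.00107), and at 24 h, at −1.03 (SE 0.11, adjusted p = 7.3e-05). By 6 h its level was thus 0.512 of that in DMSO cells, and 0.490 at 24 h.

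KLF4 went down in steps that were not equal. The change at 6 h was 0.62 log2 units below that at 2 h (difference −0.62, 95% interval −0.96 to −0.28). Between 6 and 24 h the difference was −0.06 (95% interval −0.41 to 0.28). An F-test of the change between the times passed for KLF4 (adjusted p = 0.0222, limma). Where a DMSO array is left out, this test covers only the remaining times and is a different comparison. It no longer passed without the DMSO 2 h array (adjusted p = 0.878), the DMSO 24 h array (0.297) or the PLX4720 2 h array (0.0831), or with no filter on dim genes (0.0532), and its adjusted p ranged from 0.000554 to 0.878 over 15 alternatives.

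KLF5, a factor known to promote proliferation in intestinal epithelium, rose with both inhibitors at 6 and 24 h. Its intensity was 244, 284 and 185 at 2, 6 and 24 h with PD184352, and 277, 240 and 164 with PLX4720, against 208, 142 and 124 with DMSO. KLF5 was above its time-matched DMSO array in all 6 inhibitor arrays, but the 24 h inhibitor arrays were below the DMSO 2 h array, so the treatments overlap across times. The change was 0.32 (SE 0.13, adjusted p = 0.620, limma) at 2 h, 0.87 (SE 0.13, adjusted p = 0.00454) at 6 h and 0.50 (SE 0.13, adjusted p = 0.0127) at 24 h. At 6 h the rise of KLF5 ranked 6 of the 12785 genes tested, at 1.83-fold, and 688 at 24 h.

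The level of KLF5 in DMSO cells moved with time as well. The DMSO arrays read −0.54 (log2) for 6 h minus 2 h and −0.75 for 24 h minus 2 h, a fall past 1.5-fold that 0.305% of genes showed in that direction between those arrays. No other member passed 1.5-fold between the 24 h and 2 h DMSO arrays, and 0.923% of genes were higher past that fold. The level with PD184352 was 0.22 higher at 6 h than at 2 h, and that with PLX4720 was at −0.21. For 24 h minus 2 h, KLF5 was at −0.39 with PD184352 and −0.75 with PLX4720, so its level was lower late in all 3 treatments. Against the mean of the 3 DMSO arrays in place of the DMSO 24 h array, the change of KLF5 at 24 h was 0.18 (adjusted p = 0.156, limma), which did not pass, and its adjusted p ranged from 0.000768 to 0.156 over 15 alternatives. At 2 h the same control gave 0.75 (adjusted p = 0.00508), within a range of 0.00508 to 0.982. An F-test of the change between times did not pass for KLF5 (adjusted p = 0.134), but did without the PD184352 24 h array (0.0314) or the PLX4720 24 h array (0.0402).

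KLF2, known for keeping T cells and endothelium quiescent, stayed within a span of 0.20 (log2) over all 9 arrays. Its intensity was 414, 377 and 399 at 2, 6 and 24 h with PD184352, and 381, 370 and 388 with PLX4720, against 400, 360 and 367 with DMSO. The groups overlapped. The changes were −0.01, 0.05 and 0.10 (SE 0.09 each), none was called, and the 95% intervals reached from −0.21 to 0.19 at 2 h, from −0.14 to 0.25 at 6 h and from −0.10 to 0.30 at 24 h. A change of KLF2 larger than 0.30 in either direction lies outside all 3 intervals. These intervals rest on the spread between compounds, not between cultures, so they do not exclude such a change.

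KLF6, a zinc finger factor described as a growth suppressor in prostate, was lower than DMSO in 5 of 6 inhibitor arrays. Its intensity was 404, 454 and 358 at 2, 6 and 24 h with PD184352, and 421, 423 and 427 with PLX4720, against 515, 488 and 387 with DMSO. The difference was widest at 2 h, at −0.32 (SE 0.11, adjusted p = 0.541, limma), then −0.16 (SE 0.11) at 6 h and 0.02 (SE 0.11) at 24 h, and none passed. KLF6 also drifted in DMSO cells, by −0.41 (log2) for 24 h minus 2 h. Against the mean of the 3 DMSO arrays the 24 h change was −0.23 (adjusted p = 0.0440), the opposite sign, with adjusted p from 0.0440 to 0.956 over 15 alternatives.

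Among the members that recruit SIN3A, KLF9, a repressor induced by glucocorticoids and thyroid hormone, rose late. Its intensity was 615, 633 and 1552 at 2, 6 and 24 h with PD184352, and 665, 654 and 1445 with PLX4720, against 661, 698 and 724 with DMSO. Both 24 h inhibitor arrays stood above the other 7, which spanned 9.27 to 9.50 on the log2 scale. The change was −0.05 (SE 0.09) at 2 h and −0.12 (SE 0.09) at 6 h, neither called, and 1.05 (SE 0.09, adjusted p = 2.4e-05, limma) at 24 h, a 2.07-fold rise that ranked 135 of 12785 genes. The change at 24 h exceeded that at 6 h by 1.16 (95% interval 0.87 to 1.46). The F-test of the change between times passed for KLF9 (adjusted p = 0.000545), and in 14 of 15 alternatives. The exception left out the DMSO 24 h array and so compared 2 h with 6 h alone (adjusted p = 0.975).

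KLF10, first described as an early gene of the TGF-beta response, read lower with the inhibitors. Its intensity was 221, 251 and 241 at 2, 6 and 24 h with PD184352, and 224, 236 and 249 with PLX4720, against 290.5, 309.7 and 257 with DMSO. All 6 inhibitor arrays lay below all 3 DMSO arrays, at 7.79 to 7.97 against 8.01 to 8.28 on the log2 scale. The change was −0.38 (SE 0.09, adjusted p = 0.257, limma) at 2 h, −0.35 (SE 0.09, adjusted p = 0.0612) at 6 h and −0.07 (SE 0.09, adjusted p = 0.642) at 24 h, and none passed. The 6 h value of KLF10 was called in 4 of 15 alternatives, with adjusted p from 0.0386 to 0.272: without PD184352 at 24 h or without PLX4720 at 24 h (0.0407 each), with the dimmest 50% of genes left out (0.0386) and with an intensity trend (0.0497). Leaving out either 24 h inhibitor array gives the same test at 6 h, and leaving out the DMSO array of another time repeats the main test. The 15 alternatives are thus not separate checks. In DMSO cells KLF10 was at −0.27 (log2) for 24 h minus 6 h. The change of KLF10 at 24 h was 0.32 (95% interval 0.04 to 0.59) above that at 2 h, and its F-test between times did not pass (adjusted p = 0.191).

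Over the members, 0 of 6 were called at 2 h, where 0.0860% of all genes were called (11 genes by limma, 0.0156% higher and 0.0704% lower, and 948 with an unadjusted p below 0.05). KLF4, KLF5, KLF6 and KLF10 were among the genes with an unadjusted p below 0.05 there. At 6 h, 2 of 6 were called, KLF5 higher and KLF4 lower, against 3.28% of all genes (0.540% higher and 2.74% lower). At 24 h, 3 of 6 were called, KLF5 and KLF9 higher and KLF4 lower, against 31.6% of all genes (12.5% higher and 19.2% lower). The median change of the 6 members was −0.18, −0.14 and 0.06 at 2, 6 and 24 h, beside −0.02, −0.02 and −0.01 over all genes. The F-test between times passed for 2 of 6 members and for 14.9% of all genes. In 2 of 6 members, KLF4 and KLF10, every inhibitor array lay below every DMSO array, which held for 5.23% of all genes. No member had every inhibitor array above every DMSO array, which 1.78% of genes did.

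**Figure D2:**
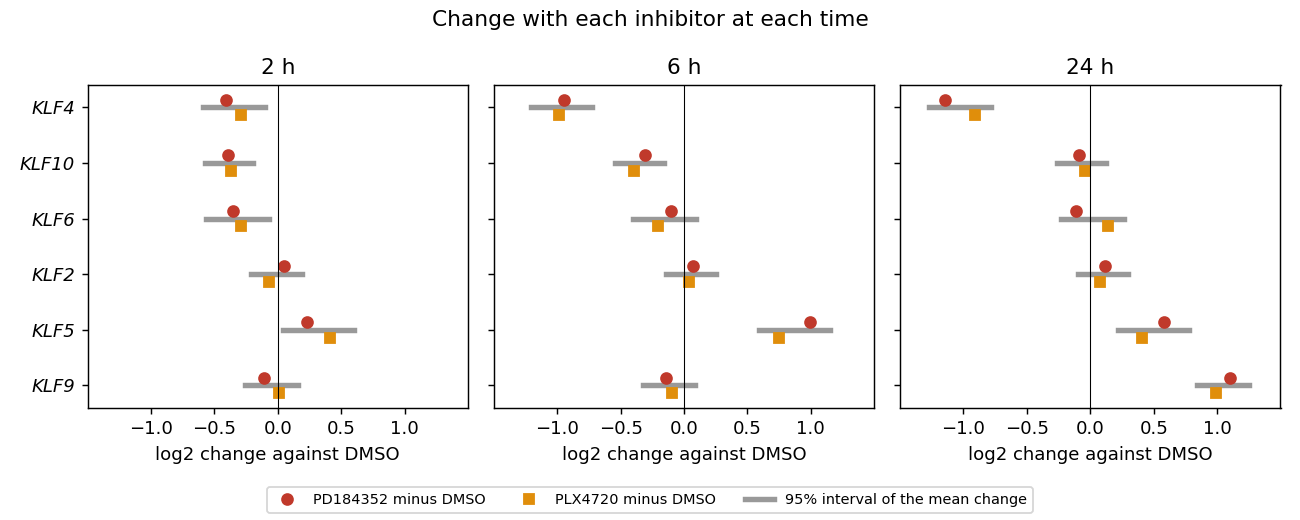
Change of each Krüppel-like factor against the time-matched DMSO array, in log2 units, at 2, 6 and 24 h. Circles are PD184352 and squares PLX4720 (1 array each), and the grey bar is limma's 95% interval of their mean; both symbols of KLF4 lie below 0 and both of KLF5 above 0 at each time, while KLF9 departs from 0 at 24 h.

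The compounds were also set against each other, at the different doses of 1 µM PD184352 and 0.4 µM PLX4720. Single-array changes of KLF4 were −0.41, −0.94 and −1.15 with PD184352 and −0.29, −0.99 and −0.91 with PLX4720 at 2, 6 and 24 h. Those of KLF5 were 0.23, 0.99 and 0.58 with PD184352 and 0.41, 0.75 and 0.41 with PLX4720. KLF9 at 24 h was at 1.10 with PD184352 and 0.99 with PLX4720. Past 1.5-fold, both compounds gave the same members: KLF5 higher and KLF4 lower at 6 h, KLF9 higher and KLF4 lower at 24 h, and none at 2 h. At 2 h, 0.0860% of all genes were higher and 0.305% lower past that fold with PD184352, and 0.0626% and 0.235% with PLX4720. Of all genes, 0.336% were higher and 1.57% lower past 1.5-fold with PD184352 at 6 h, and 4.49% and 8.79% at 24 h. With PLX4720 these shares were 0.258% and 1.64% at 6 h, and 3.59% and 7.14% at 24 h. The compounds share their DMSO arrays, so a common direction is no independent repeat.

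Averaged over the times in a fit with treatment and time as block (4 residual degrees of freedom), the difference of PD184352 minus PLX4720 was called for 0 of 6 members and 0 of 12785 genes by limma, with 169 genes at an unadjusted p below 0.05. For KLF4 it was −0.10 (95% interval −0.46 to 0.26), for KLF5 0.08 (interval −0.24 to 0.39) and for KLF9 −0.02 (interval −0.60 to 0.56). The intervals were narrower for KLF2 (−0.07 to 0.19), KLF6 (−0.30 to 0.16) and KLF10 (−0.19 to 0.20). The spread of this fit includes how far the change against DMSO varied with time. In a fit of the 6 inhibitor arrays alone the intervals were −0.26 to 0.05 for KLF4, −0.10 to 0.25 for KLF5 and −0.17 to 0.13 for KLF9, and again no member was called. KLF6 at 24 h was the member with the widest single-array gap, at −0.25, with no test at a single time.

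The same fit gave the change with either inhibitor averaged over the times. KLF4 was at −0.78 (SE 0.13, adjusted p = 0.0996, limma), KLF5 at 0.56 (SE 0.12, adjusted p = 0.114), KLF10 at −0.27 (SE 0.07, adjusted p = 0.151), KLF9 at 0.29 (SE 0.21), KLF6 at −0.15 (SE 0.08) and KLF2 at 0.05 (SE 0.05). None of the 6 was called, beside 0.133% of all genes (17 genes, all lower). A change that varies with time widens the spread in this fit. Leaving out a DMSO array takes its time out of the average, so the result covers the remaining times only and is a different comparison. Without the DMSO 2 h array KLF4 (−0.997, adjusted p = 0.00508) and KLF5 (0.68, adjusted p = 0.0416) were called, and without the DMSO 24 h array KLF10 (−0.37, adjusted p = 0.0383). Over 15 alternatives the adjusted p reached 0.382 for each of these 3 genes. KLF9 was at −0.08 without the DMSO 24 h array, an average of 2 and 6 h alone. It was at 0.50 without the DMSO 6 h array, an average of 2 and 24 h, and was called in none of the 15.

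**Figure D3:**
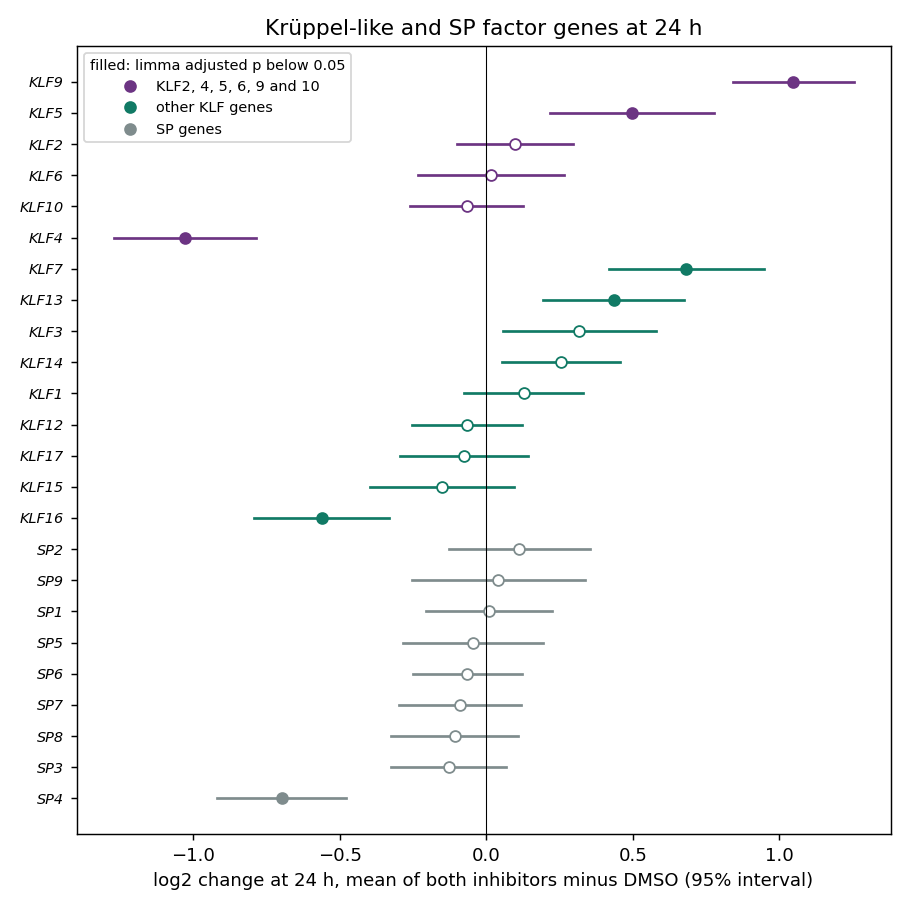
Change at 24 h of Krüppel-like and SP factor genes, as the mean of both inhibitor arrays minus the DMSO array in log2 units, with limma's 95% interval. Filled points were called; KLF9 has the highest value (1.05) and KLF4 the lowest (−1.03) of the 24 genes drawn.

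Other Krüppel-like factors were taken from a list of 11 genes: 10 were on the array by symbol, and 9 passed the filter. None was called at 2 or 6 h. At 24 h, 2 rose and 1 fell, and the list's median change was 0.13, beside −0.01 for all genes. These 3 of 9 stand beside 31.6% of all genes called at 24 h, a like share. KLF7, an activator known from neuronal development, rose by 0.68 (SE 0.12, adjusted p = 0.00156, limma). Its intensity was 428 with PD184352 and 366 with PLX4720 at 24 h, against 246 with DMSO at 24 h and 358 with DMSO at 2 h, so KLF7 too lay lower in late DMSO cells. KLF13, a close relative of KLF9 that also recruits SIN3A, rose by 0.43 (SE 0.11, adjusted p = 0.0115), with an intensity of 462 with PD184352 and 422 with PLX4720, against 326 with DMSO. KLF16, another SIN3A-binding relative, fell by 0.56 on the log2 scale (SE 0.10, adjusted p = 0.00216), with 387 with PD184352 and 426 with PLX4720, against 600 with DMSO at 24 h.

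Of the 9 SP factors, all tested, 0 were called by limma at 2 h or 6 h, and at 24 h SP4 alone fell, by 0.70 on the log2 scale (SE 0.10, adjusted p = 0.000450). SP4 read 200 with PD184352 and 206 with PLX4720, against 330 with DMSO at 24 h. The broadly expressed SP1 and SP3, which share GC boxes with the Krüppel-like factors, were at 0.01 (SE 0.10) and −0.13 (SE 0.09) at 24 h and did not pass. The median of the list was −0.06 at 24 h, and its 1 of 9 called stands beside 31.6% of all genes.

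Proteins that Krüppel-like factors bind were represented by 10 corepressor and coactivator genes, of which 9 were tested and 0 were called at 2 and 6 h by limma. At 24 h the acetyltransferase gene KAT2B rose by 1.03 (SE 0.10, adjusted p = 4.3e-05), while HDAC2 was at −0.45 (SE 0.10, adjusted p = 0.00614) and SIN3A itself at −0.31 (SE 0.10, adjusted p = 0.0369), both called lower. Of 7 ubiquitin ligase genes that act on these factors, FBXO32 (−1.07, SE 0.09) and SMURF2 (−0.89, SE 0.09) fell at 6 h. SMURF2 was still lower at 24 h (−0.62, SE 0.09). Its 6 h value was set against the highest DMSO array, at 9.56 (log2), beside 8.97 at 2 h and 9.15 at 24 h in DMSO cells. The medians of both lists at 24 h were −0.01 and −0.18. Called were 3 of 9 and 1 of 7 at 24 h, beside 31.6% of all genes, and at 2 and 6 h 0.0860% and 3.28% of all genes were called.

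Of 7 genes of the MEK5, ERK5 and MEF2 pathway 6 were tested: MEF2D fell at 6 h (−0.41, SE 0.09) and MEF2C rose at 24 h (1.63, SE 0.10), to 490 with PD184352 and 435 with PLX4720, against 149 with DMSO. Of 6 genes of the serum response factor group 5 were tested: the ternary complex factor ELK3 fell at 6 h (−1.11, SE 0.11) and 24 h (−0.64, SE 0.11), and MRTFA rose at 24 h (0.44, SE 0.10). The median changes of these lists at 24 h were 0.18 and −0.22, with called members in both directions in the serum response factor group. Called were 1 of 6 and 2 of 5 at 24 h, beside 31.6% of all genes.

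Of 8 glucocorticoid-responsive genes, all tested, FKBP5 rose at 2 h (1.00, SE 0.12) and was at −0.24 (SE 0.12) at 24 h. ERRFI1 was called lower at 2 h (−0.91, SE 0.12) and at 6 h (−2.48, SE 0.12). The log2 level of FKBP5 in DMSO cells was 6.07 at 2 h, below the filter's limit of 6.21, and 6.81 and 6.66 at 6 and 24 h. Its 2 h value was thus set against the lowest DMSO array. TSC22D3 (0.15, SE 0.09), PER1 (0.03, SE 0.09), ZBTB16 (0.09, SE 0.08) and DUSP1 (−0.13, SE 0.12), also on the list, did not pass at 24 h. DUSP1 was at −0.41 at 2 h and −0.42 at 6 h, neither called. At that time NR3C1, the receptor gene, rose by 0.40 (SE 0.10), while SGK1 (−0.43, SE 0.11) and ERRFI1 (−2.90, SE 0.12) fell, 3 of 8 called beside 31.6% of all genes. The list's median was −0.05. Of 8 TGF-beta-responsive genes 7 were tested, with 0 called at 2 and 6 h by limma and 3 higher at 24 h: TGFBI (1.30, SE 0.09), ID3 (1.10, SE 0.11) and SKIL (0.31, SE 0.10), with a median of 0.31. Of all genes, 12.5% were called higher at 24 h, and 0.0860% and 3.28% were called in either direction at 2 and 6 h. KLF10 was at −0.07 (SE 0.09) at that time.

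Members differed among themselves in their profile over the 9 arrays. The highest correlation between members was 0.69, for KLF6 and KLF10, and the lowest −0.62, for KLF4 and KLF9. These are descriptions over 9 arrays that share treatments and DMSO controls. Among the 1049 tested genes that spanned at least 1 log2 unit, the 3 most like KLF4 were TFAP2C (Pearson r = 0.99), an AP-2 transcription factor, ERRFI1 (0.989), an inhibitor of EGFR, and SLC4A7 (0.987), a bicarbonate transporter. Their changes at 6 h were −1.49, −2.48 and −0.93, beside −0.96 for KLF4.

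The genes most like KLF9 were KAT2B (r = 0.996), the zinc finger gene ZNF536 (0.995) and MOXD1 (0.994). KAT2B read 747, 801 and 2070 at 2, 6 and 24 h with PD184352 and 848, 830 and 1914 with PLX4720, against 902, 926 and 971 with DMSO. Like KLF9 it stood higher on both 24 h inhibitor arrays than on the other 7. For KLF10 the nearest were the repressor SNAI1 (0.89), HOXB2 (0.86) and IER3 (0.83), whose changes at 2 h were −0.79, −0.71 and −1.58. At 24 h they were at −0.78, −0.85 and −1.42, where KLF10 was at −0.07.

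The remaining members had matches less close than those of KLF4 and KLF9. Matches were sought only among genes that spanned at least 1 log2 unit, more than KLF2 (0.20), KLF6 (0.52) and KLF10 (0.49) spanned. KLF5 correlated at 0.86 with the pseudogene SDHCP2, at 0.78 with the matricellular gene CCN1 and at 0.77 with LINC01531. KLF6 was nearest to DOK3 (0.84), APEX2 (0.76) and HCFC1 (0.75). KLF2, which hardly moved, reached 0.64 with CSRP2, 0.55 with LINC00869 and 0.50 with ANXA2.

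**Figure D4:**
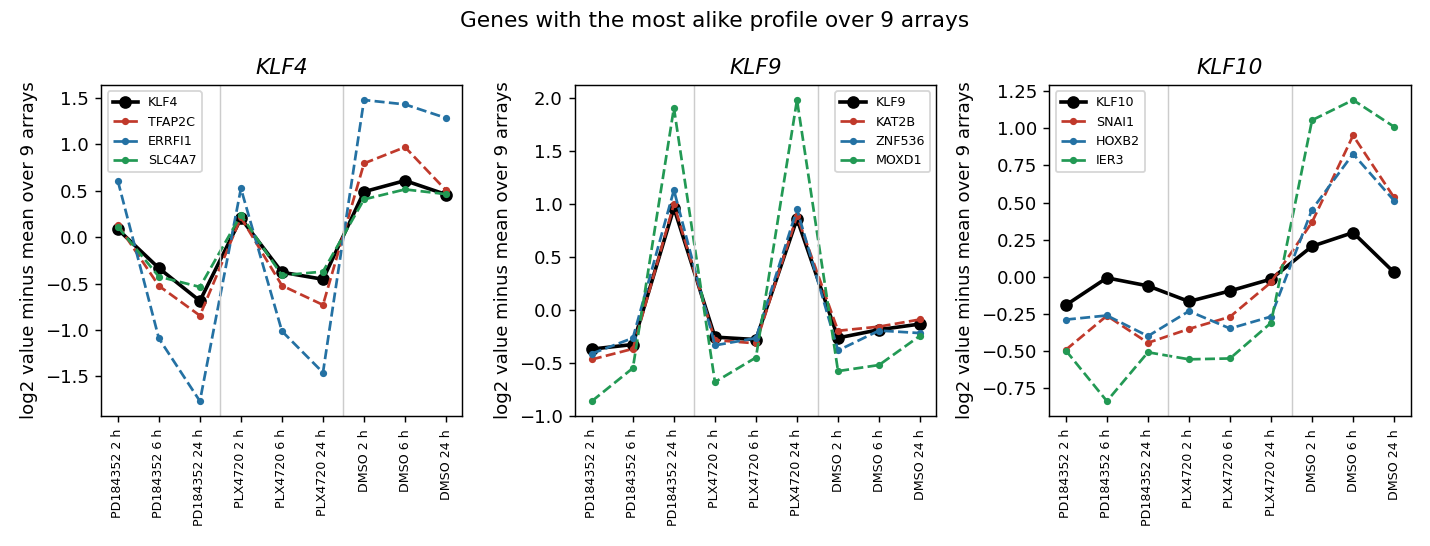
Levels of KLF4, KLF9 and KLF10 (black) and of the 3 genes whose 9 values correlate best with each, as log2 value minus that gene's mean over the 9 arrays, with arrays in the order PD184352, PLX4720 and DMSO and times from 2 to 24 h within each. KLF9 and its neighbours peak on both 24 h inhibitor arrays, and KLF4 and its neighbours lie lower on all 6 inhibitor arrays than on the 3 DMSO arrays.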

How the data were processed

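The deposited values are intensities per transcript cluster on a linear scale: all were positive and whole-array medians lay between 98.96 and 102.4. Per the submitters' processing notes, RMA, limma and R 2.8.0 were used, without their role or order. No source used here names a genome build for the rows of the array. Of 35446 rows, 19380 had 1 symbol in the platform table, 3339 several and 12727 none. Symbols were checked by gene identifier against RefSeq (GRCh38.p14), and 0 changed. Log2(intensity + 1) was computed with no further normalization, 1 row per gene (highest mean) was kept, and the dimmest 25% of genes were left out. Tests used limma 3.58.1 in R 4.3.3 on all 12785 genes, checked on simulated data. Identical columns were looked for and not found (0 pairs). The number of arrays limits the precision.

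Members and lists were chosen with earlier results of these data known. Named are all members, from each list the genes called at any time (up to 5, by size), and the 3 most alike profiles per member. SP1, SP3, TSC22D3, PER1, ZBTB16, DUSP1 and the cell type markers given are outside that rule and were chosen after their values were seen. Alternatives were another filter, pseudocount (16), quantile normalization, averaged rows, an intensity trend, the mean DMSO control, the inhibitor arrays alone and leaving out each array.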

Additional observations from a re-analysis of the deposited data

Results flagged for a closer look

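The change with both inhibitors against DMSO differed between 2, 6 and 24 h for KLF4 (F-test, limma adjusted p = 0.0222) and for KLF9 (adjusted p = 0.000545). KLF4 was at −0.35, −0.96 and −1.03 at the 3 times, and KLF9 at −0.05, −0.12 and 1.05. No group had enough arrays for a check on single deviating samples.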

How the results depend on the processing

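KLF4 at 6 and 24 h, KLF5 at 6 h and KLF9 at 24 h kept their direction and their call in all 15 alternatives run for each. Several of these could not alter a direction: leaving out arrays of other times, and averaging rows, since each member has a single row. Leaving out the DMSO array of another time could not alter a call either, as it repeats the main test. At another time, leaving out PD184352 or leaving out PLX4720 gives the same test. The 15 are thus not separate checks. None of the 15 left out the DMSO array of the same time, so dependence on that array was not tested. The counts of all genes moved more. At 2 h the 11 genes became 1 with no filter, 35 with the dimmest 50% left out, 23 with a pseudocount of 16, 0 after quantile normalization (limma) and 283 against the mean of the 3 DMSO arrays. At 6 h the 419 became 252 with no filter and 988 against that mean. Against it, 3 members were called at 2 h (KLF4, KLF5 and KLF10) in place of 0, KLF10 was called at 24 h (−0.22, adjusted p = 0.0196, range 0.0196 to 0.863 over 15 alternatives), and KLF6 at 24 h turned to −0.23. The cause was not tested. Members whose change differed between times went to 1 (KLF9) with no filter.

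Leaving out 1 array at a time gave 0 to 95 genes at 2 h, 205 to 800 at 6 h and 3378 to 4066 at 24 h. The 2 h count was 0 without either inhibitor array of 2 h, 3 without either of 6 h and 95 without either of 24 h, and the 6 h count was 205 without PD184352 at 6 h, 212 without PLX4720 at 6 h and 800 without either inhibitor array of 24 h. For members the ranges were 0 to 0 at 2 h, 2 to 3 at 6 h and 3 to 3 at 24 h, 0 to 2 for the mean over times, 0 to 0 between compounds and 0 to 3 for the F-test. The F-test called 0 members without DMSO at 24 h and 1 (KLF9) without DMSO at 2 h or PLX4720 at 2 h. Leaving out a DMSO array leaves no comparison at its time. Where an inhibitor array is left out, the lone array at that time is assumed to vary like the others. Arrays were matched by time, and no pairing beyond that was possible because the labels give no replicate numbers that groups share.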
